A study of Mus musculus with 23 samples.

Results

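The 10 genes described here, whose products are named in work on pre-metastatic niches, were followed in the liver and the primary tumor of an orthotopic colorectal cancer model. They were named with earlier results of these data known and were found in the gene table by symbol, all 10 of them among 48895 symbols. Fn1, Postn, Tnc, Vcan and Spp1 encode matrix proteins, Lox and Loxl2 encode enzymes that crosslink matrix, Tgfb1 and Tgfb2 encode growth factors of the TGF-beta family, and Mif encodes a cytokine. The libraries came from male BALB/c mice that were 4 to 6 weeks of age when they were divided into groups. In 9 mice CT26, a cell line grown from a mouse colon carcinoma, was injected under the serosa of the cecum, and serum-free medium was injected in 5 sham-operated mice. Tissue was taken 3 weeks later, so that 9 pre-metastatic livers, the 9 primary tumors of the same mice and 5 control livers gave 23 RNA-seq libraries. A tumor in this model is a mixture of CT26 cells and host cells, and a whole piece of liver holds hepatocytes and all other liver cells. The 3 comparisons ask what the liver of a tumor-bearing mouse gained before metastasis, and how far the same genes were used in the tumor that the mouse carried.

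A pre-metastatic niche is a site in a distant organ that is altered before tumor cells settle there. Fibronectin, tenascin C, periostin, versican and osteopontin are secreted proteins that surround cells in wounds and in tumor stroma and are bound by integrins or CD44. Lysyl oxidases oxidize lysines of collagen and elastin so that the fibers become crosslinked. TGF-beta is secreted in a latent form that is held in the matrix by latent TGF-beta binding proteins, is released by integrins or thrombospondin 1, and signals through paired receptors to Smad proteins, which raise the transcription of many matrix genes in fibroblasts and hepatic stellate cells. In healthy liver, hepatocytes secrete plasma fibronectin, and bile duct cells are a known source of osteopontin. MIF is made by many cell types and binds CD74, CXCR2 and CXCR4.

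The control livers were counted to a depth of 51064615 to 60393702 reads each, the pre-metastatic livers to 44587556 to 79773163 and the tumors to 47005276 to 70884436. Levels are given as RPKM, a read count set against the length of the gene and the size of the library. Folds come from counts fitted with edgeR after TMM scaling, a scaling that sets the bulk of genes equal between libraries, and a gene was called at a Benjamini-Hochberg adjusted *p* under 0.05 over all genes tested. Nothing in the labels states whether replicate libraries differ in litter or day, so *p* values measure the spread between these mice. The summed RPKM of 6 hepatocyte markers was 41509 to 51200 in control liver, 28922 to 64239 in pre-metastatic liver and 5.73 to 254 in the primary tumor. Livers were also split at the largest gap in an index of 6 clock genes, although no collection time is given in the labels. Dbp, Per3 and Ciart were high and Arntl, Npas2 and Clock were low in 1 of 5 control livers and in 4 of 9 pre-metastatic livers (M1, M2, M10 and M12), called the late clock phase here, and the other livers are called the early clock phase. The late control liver, C7, had an index of 0.981, between -0.102 in M7, the highest early liver, and 2.05 in M12. Its place is therefore uncertain, and fits on the early phase leave it out. A tumor was given the phase of the liver of its mouse. In whole tissue, more cells of a type and more RNA per cell cannot be told apart.

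In the pre-metastatic liver, 6 of the 10 genes were higher than in control liver: Spp1, Fn1, Vcan, Tnc, Tgfb1 and Loxl2. Spp1 rose 5.96-fold, Fn1 2.13-fold and Vcan 14.2-fold, and for these 3 genes every pre-metastatic liver lay above every control liver. The share of all genes that separate in this way was not counted. Tnc rose 3.28-fold from a very low level, and Tgfb1 and Loxl2 rose 1.65-fold and 1.66-fold. None of the 10 genes was called lower, and Postn, Tgfb2, Lox and Mif did not pass the test. Of all 16987 genes tested, 17.7% were called higher and 13.3% lower, and the median log2 fold change of the 10 genes was 0.91 against 0.01 for all genes.

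**Figure D1:**
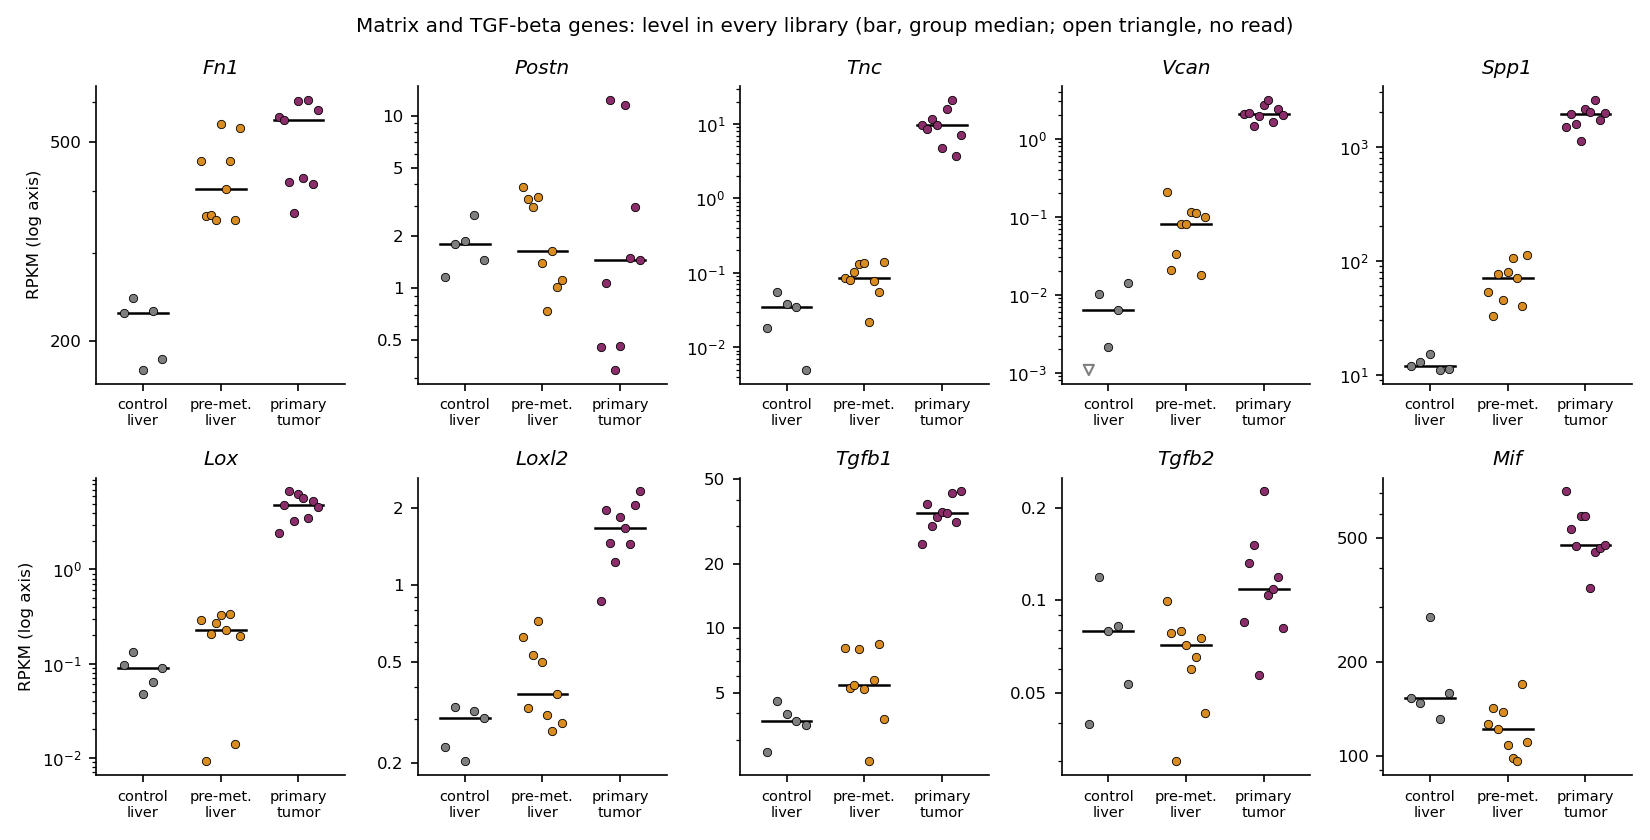
RPKM on a log axis of the 10 genes (1 panel each) in the 5 control livers, 9 pre-metastatic livers and 9 primary tumors; each point is a library, the bar is the group median and the open triangle is the control liver with no Vcan read. Spp1, Fn1 and Vcan show no overlap between both kinds of liver, and 7 genes lie higher in every tumor than in every liver. The share of all genes without overlap was not counted.

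Spp1 encodes osteopontin, a secreted phosphoprotein bound by integrins and CD44 (chr5:104435111-104441053, plus strand, mm10). Its level in the control livers was 11.9, 13.02, 15.3, 10.97 and 11.2 RPKM. In the pre-metastatic livers the lowest was 32.4, the median 70.0 and the highest 112 RPKM, so that the lowest of them was above the highest control liver. Its log2 fold change was 2.58 ± 0.34 (SE, n = 9 and 5; adjusted *p* = 9.95e-05), with a 95% interval of 1.86 to 3.29. The exact rank-sum test on RPKM gave *p* = 0.000999, the smallest that 9 against 5 libraries allow. The same test gave this *p* for Fn1 and Vcan, 0.00699 for Tnc, 0.0420 for Tgfb1 and 0.0829 for Loxl2. For Mif, which was lower, it gave 0.0290, and for Lox, Postn and Tgfb2 0.112 or more. These rank-sum *p* values are unadjusted. Livers of tumor-bearing mice also varied more among themselves than control livers, with a coefficient of variation of 41.4% against 14.04%.

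Fn1 encodes fibronectin (chr1:71585473-71653234, minus strand), and it was the most abundant of the 10 genes per length in both kinds of liver. The control livers held 228, 244, 175, 230 and 184 RPKM. The pre-metastatic livers ranged from 349 to 543 RPKM with a median of 403, all above the control livers, a log2 fold change of 1.09 ± 0.19 (SE; adjusted *p* = 0.000749).

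Vcan, which encodes the large proteoglycan versican (chr13:89655310-89742694, minus strand), was close to absent in control liver. The 5 control livers held 0, 9, 2, 5 and 12 reads, 28 in all, and the pre-metastatic livers held 14 to 168 reads with a median of 0.0809 RPKM. All 9 pre-metastatic livers were above the control livers, but 2 of them, M10 and M2, lay just above at 0.0178 and 0.0204 RPKM beside a highest control value of 0.0142. Its log2 fold change of 3.83 ± 0.76 (SE; adjusted *p* = 0.0017) therefore rests on a denominator of a few reads per library, and its 95% interval ran from 2.21 to 5.45.

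Tnc encodes tenascin C, a matrix glycoprotein that is scarce in most healthy adult tissue (chr4:63959785-64047015, minus strand). Its control values were 0.0180, 0.0547, 0.0384, 0.0345 and 0.00494 RPKM. In the pre-metastatic livers the lowest was 0.0221, the median 0.0863 and the highest 0.141 RPKM. Every pre-metastatic liver but that of mouse M7 was above the control livers, and the log2 fold change was 1.71 ± 0.50 (SE; adjusted *p* = 0.0173). Among early-phase livers alone the log2 fold change was 1.44 and the call was lost (adjusted *p* = 0.0633), while leaving out 1 mouse at a time gave adjusted *p* of 0.00685 to 0.0469.

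Tgfb1 encodes TGF-beta 1 (chr7:25687002-25705077, plus strand). The control livers held 2.63, 4.58, 3.99, 3.68 and 3.52 RPKM, and the pre-metastatic livers 2.38 to 8.42 with a median of 5.40. The groups overlapped: 7 pre-metastatic livers were above all control livers, while that of M7 was below all of them. On the log2 scale the fold change was 0.73 ± 0.23 (SE; adjusted *p* = 0.0236), and the call was lost without C1 (adjusted *p* = 0.0659), without C7 (0.0515) and among early-phase livers (log2 fold change 0.56, adjusted *p* = 0.127). Without any other single mouse the call stood, with adjusted *p* down to 0.00258, and it was also lost with library totals (0.0582).

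Loxl2 encodes lysyl oxidase-like 2 (chr14:69608692-69695834, plus strand). Its control values were 0.232, 0.334, 0.204, 0.320 and 0.301 RPKM, and the pre-metastatic livers ranged from 0.268 to 0.722 with a median of 0.376. Only 5 of the 9 were above all control livers. The log2 fold change was 0.73 ± 0.24 (SE; adjusted *p* = 0.0316), and it missed the threshold without any one of C1, C5, C7, M1, M4 or M5, where adjusted *p* was 0.0506 to 0.0841, among early-phase livers (adjusted *p* = 0.0596), with library totals (0.0682) and without the filter on low counts (0.0576).

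Lox, the founding member of the lysyl oxidase family (chr18:52516060-52529867, minus strand), behaved differently from liver to liver. The control livers held 29, 37, 14, 16 and 24 reads. In 7 pre-metastatic livers there were 56 to 91 reads, above all control livers in RPKM, whereas the livers of M2 and M10 held 2 and 4 reads and were below all of them. Over all livers the log2 fold change was 1.38 ± 0.65 (SE; adjusted *p* = 0.117). Without M2 and M10, an alternative chosen after the values were seen, it was 1.73 (adjusted *p* = 0.000795), without M2 alone 1.54 (0.0334), without M10 alone 1.54 (0.0411), and among early-phase livers, which hold neither, 1.75 (0.00652). M2 and M10 were also the livers with the least Vcan. Over the same 7 mice without M2 and M10, 8 of the 10 genes were called, the 6 above, Lox higher and Mif lower.

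**Figure D2:**
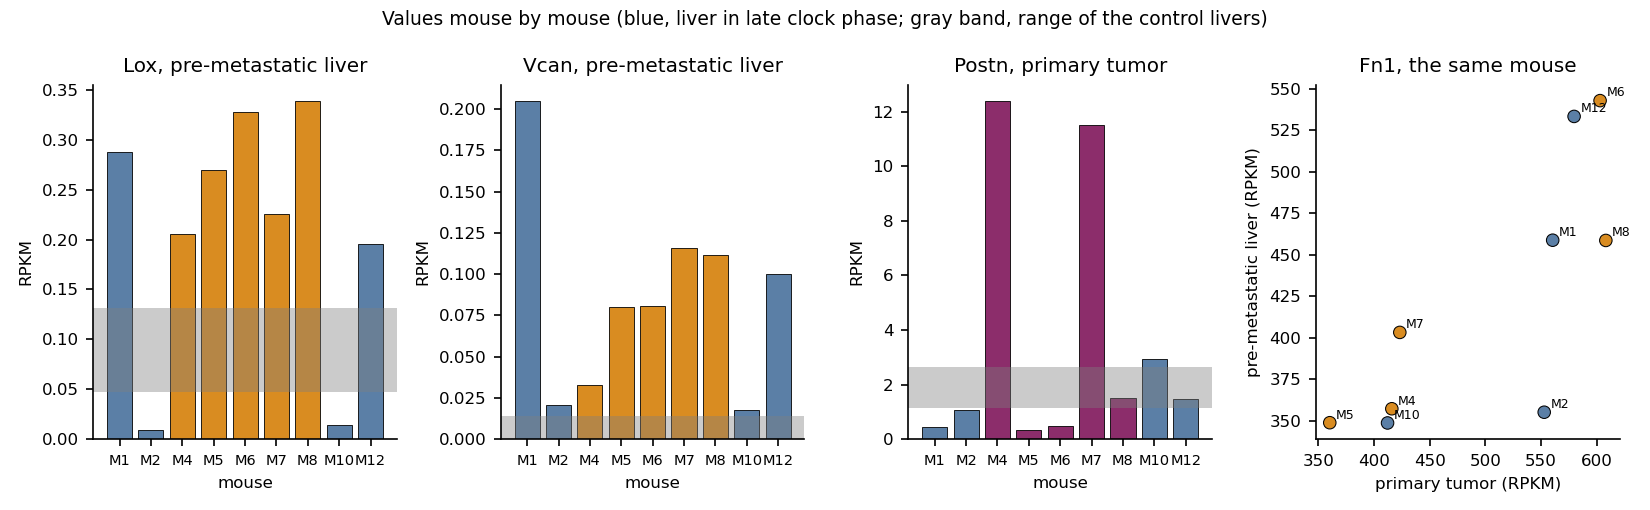
RPKM of Lox and of Vcan in each pre-metastatic liver and of Postn in each primary tumor, with the range of the control livers as a gray band, and Fn1 in liver against tumor of the same mouse; blue marks mice whose liver was in the late clock phase. Lox is at 0.00909 and 0.0139 RPKM in M2 and M10, below the gray band, and Postn stands at 12.4 and 11.5 RPKM in the tumors of M4 and M7.

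Postn encodes periostin (chr3:54359272-54391041, plus strand). The control livers held 1.15, 1.79, 1.88, 2.66 and 1.46 RPKM and the pre-metastatic livers 0.733 to 3.85, with 4 livers above and 3 below the control range. Its log2 fold change was 0.32 ± 0.35 (SE; adjusted *p* = 0.521) with a 95% interval of -0.42 to 1.06. Tgfb2, which encodes TGF-beta 2 (chr1:186622787-186706220, minus strand), was read 9 to 37 times per liver. Its log2 fold change was -0.08 ± 0.31 (SE; adjusted *p* = 0.870) with an interval of -0.74 to 0.58, so that a change smaller than these bounds could not be seen at this depth.

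Mif (chr10:75859353-75860250, minus strand) was the second most abundant of the 10 genes in both kinds of liver. The control livers held 154, 148, 279, 131 and 159 RPKM, where C5 stands apart. The pre-metastatic livers ranged from 95.7 to 170 RPKM with a median of 122, and 6 of 9 were below all control livers. Its log2 fold change was -0.42 ± 0.16 (SE; adjusted *p* = 0.0603). It was called lower by DESeq2 (-0.42, adjusted *p* = 0.0476), with library totals (-0.50, 0.0404) and among early-phase livers (-0.60, 0.0470). Leaving out 1 mouse gave adjusted *p* of 0.0276, without M10, to 0.271, without C5, where the log2 fold change was -0.19. The 5 pseudogenes of Mif in the table held at most 9 reads in any library, and reads that match a copy equally well could still have been lost or split in counting.

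The promoters of 7 of the 10 genes were found in RefSeq (build GRCm38.p6). For 4 of the genes called higher in pre-metastatic liver, the 250 bases before the transcription start nearest to the gene start of the table are shown, so that the sequences of genes that rose together can be set side by side. They run 5′ to 3′ on the strand of the gene. Capitals mark any match, on either strand, to CAGAC (the Smad box), TGANTCA (AP-1), ACGTG (the core of the hypoxia response element) or TATAAA, and no match overlaps another.
Spp1, chr5:104434861-104435110, plus strand: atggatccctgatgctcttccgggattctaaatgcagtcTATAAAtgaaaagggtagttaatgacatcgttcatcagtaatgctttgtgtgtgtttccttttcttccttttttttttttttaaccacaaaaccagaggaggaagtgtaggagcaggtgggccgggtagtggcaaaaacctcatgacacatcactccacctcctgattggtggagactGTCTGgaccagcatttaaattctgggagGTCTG
Tnc, chr4:64047016-64047265, minus strand: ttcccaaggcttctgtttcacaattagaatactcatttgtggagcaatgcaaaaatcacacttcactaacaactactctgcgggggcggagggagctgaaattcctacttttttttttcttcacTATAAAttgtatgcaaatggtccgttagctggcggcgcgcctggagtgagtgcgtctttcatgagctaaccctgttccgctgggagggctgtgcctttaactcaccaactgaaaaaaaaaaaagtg
Tgfb1, chr7:25686752-25687001, plus strand: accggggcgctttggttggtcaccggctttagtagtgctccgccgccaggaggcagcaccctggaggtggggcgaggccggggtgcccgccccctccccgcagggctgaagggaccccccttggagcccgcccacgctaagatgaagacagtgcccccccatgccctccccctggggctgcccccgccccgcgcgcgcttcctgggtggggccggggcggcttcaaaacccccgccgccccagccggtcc
Vcan, chr13:89742513-89742762, minus strand: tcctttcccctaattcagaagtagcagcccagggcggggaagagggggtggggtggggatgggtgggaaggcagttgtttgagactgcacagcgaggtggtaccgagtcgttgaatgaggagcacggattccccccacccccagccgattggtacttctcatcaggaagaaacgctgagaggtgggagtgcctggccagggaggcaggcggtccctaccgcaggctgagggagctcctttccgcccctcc
Spp1 held 2 Smad boxes, both as the reverse complement, at 33 to 29 and at 5 to 1 bases before the start, and 1 TATAAA at 211 to 206 bases before it. Tnc held 1 TATAAA and no other motif. Tgfb1 and Vcan held none of the 4 motifs, and their stretches were rich in G and C, 75.2% and 62.4% against 43.6% for Spp1 and 44.8% for Tnc. The Vcan start in RefSeq lies 182 bases from that of the table. Among the 32851 promoters of the same length, 42.2% hold a Smad box, 6.75% an AP-1 motif, 16.6% ACGTG and 12.4% TATAAA. The other promoters found belong to genes not called between livers, and they also held Smad boxes, 2 each for Mif and Tgfb2 and 1 for Postn.

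Other genes of the TGF-beta pathway were called in the pre-metastatic liver in both directions. The counts below stand beside 17.7% of all genes called higher and 13.3% called lower. Of 11 genes tested for storage and activation of the ligand, 4 were higher and 1 was lower. Nrros, which tethers latent TGF-beta on macrophages, rose from 1.205 ± 0.210 to 2.19 ± 0.687 RPKM (mean ± SD; log2 fold change 0.94 ± 0.19 SE, adjusted *p* = 0.00215), and Thbs1, thrombospondin 1, rose from 0.179 ± 0.0439 to 0.652 ± 0.332 RPKM (1.995 ± 0.42, 0.00261). Furin, a protease that cleaves the TGF-beta precursor, fell by 0.47 on the log2 scale (SE 0.16, adjusted *p* = 0.0398). Of 6 receptor genes only Tgfbr2, the type II receptor, was called and was higher (log2 fold change 0.85 ± 0.21 SE, adjusted *p* = 0.0074). Of 9 Smad genes and regulators, Smurf1, a ubiquitin ligase, was higher (0.51 ± 0.11, 0.00345) and Smad7, the inhibitory Smad that TGF-beta itself induces in many cells, was lower (-0.69 ± 0.21, 0.0233).

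Of 18 genes of a published TGF-beta response of fibroblasts, drawn from other data, 3 were higher, 3 were lower and 12 were not called, with a median log2 fold change of 0.33. Tgfb1 also belongs to the list but is described above and is left out of this count. With Tgfb1, 4 of 19 were higher and 3 were lower. Col4a1, a basement membrane collagen, was higher (log2 fold change 0.92 ± 0.22 SE, adjusted *p* = 0.00546), as was Adam12, a metalloprotease (1.69 ± 0.51, 0.0198). Tns1, which links integrins to actin, was lower (-1.07 ± 0.17, 0.000426), and so was Hspb1, a small heat shock protein (-2.07 ± 0.34, 0.000438).

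Genes of matrix enzymes, receptors and other matrix proteins were also called. Beside Lox and Loxl2, 3 of 5 genes of the lysyl oxidase family and its processing were higher and none was lower. Loxl1 rose from 0.393 ± 0.0960 to 1.44 ± 0.425 RPKM (log2 fold change 1.97 ± 0.26 SE, adjusted *p* = 0.000116), and Pcolce, which enhances procollagen cleavage, from 2.15 ± 0.621 to 6.22 ± 2.40 RPKM (1.64 ± 0.27, 0.000513). Of 9 matrix receptors, 4 were higher, none was lower and 5 were not called, with 2 higher under library totals. Among those higher were Cd44, which binds hyaluronan and osteopontin (1.37 ± 0.19, 0.000159), and the syndecan gene Sdc4 (0.51 ± 0.13, 0.00924). Of 17 other matrix glycoproteins and proteoglycans tested, 7 were higher and 2 were lower. Vtn, vitronectin, a plasma protein of hepatocytes, rose from 1432 ± 109 to 2296 ± 219 RPKM (0.77 ± 0.13, 0.000716), and Fbln1, fibulin 1, was higher (1.41 ± 0.26, 0.00105), while Fbln5, fibulin 5 (-0.83 ± 0.23, 0.0133), and Ecm1 (-0.97 ± 0.32, 0.0334) were lower. All 5 genes listed with Mif were called, in both directions. Ddt, the paralog of Mif, fell from 453 ± 32.5 to 194 ± 47.2 RPKM (-1.16 ± 0.12, 3.26e-05) and Cops5 was lower (-0.39 ± 0.08, 0.00147), while the receptor genes Cd74 (1.43 ± 0.37, 0.00921), Cxcr2 (1.91 ± 0.52, 0.0114) and Cxcr4 were higher.

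**Figure D3:**
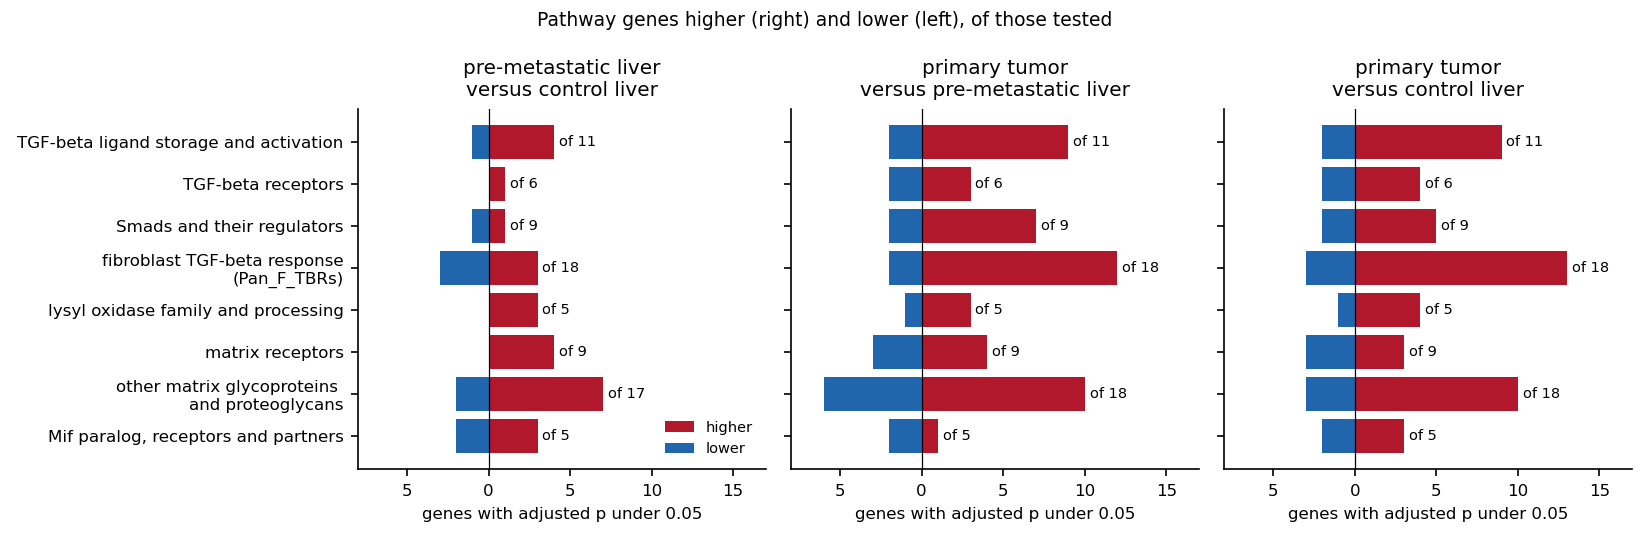
Number of genes of each pathway list with an adjusted p under 0.05, higher to the right and lower to the left, in the 3 comparisons under TMM scaling; the label gives the number tested. In pre-metastatic against control liver, 1 of 6 TGF-beta receptors, 3 of 5 lysyl oxidase genes and 4 of 9 matrix receptors were higher and none was lower. The list of the fibroblast response holds 3 higher and 3 lower of 18. Of all genes tested between livers, 17.7% were called higher and 13.3% lower. These shares were 43.8% and 39.5% in tumor against pre-metastatic liver and 44.2% and 38.1% in tumor against control liver.

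Markers of several cell types also differed between both kinds of liver. Of 6 Kupffer cell markers 5 were higher in pre-metastatic liver, with a summed level of 56.4 to 116 RPKM in control and 114 to 346 RPKM in pre-metastatic liver, and of 6 monocyte markers 5 were higher, at 6.80 to 15.2 and 14.8 to 37.3 RPKM. Of 5 neutrophil markers tested 3 were higher (6.23 to 19.96 against 6.99 to 128 RPKM for all 6 markers), and Ly6g had at most 7 reads in a control liver. Of 6 fibroblast markers, the collagen genes Col1a1, Col1a2 and Col3a1 were higher and Dcn, Lum and Pdgfra were not called (71.2 to 110 against 49.8 to 170 RPKM). Of 4 cholangiocyte markers tested Krt19 and Krt7 were higher (3.20 to 6.06 against 3.11 to 22.2 RPKM for all 6), and Cftr and Sctr had at most 11 reads in any liver. None of 6 hepatic stellate cell markers was called (9.64 to 13.01 against 3.28 to 19.4 RPKM). Of 6 endothelial markers 1 was higher (21.6 to 48.2 against 16.6 to 70.4 RPKM), and of the hepatocyte markers 1 was higher and 2 were lower. The part of these cell types in the rise of the 6 genes was not tested.

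The primary tumor held much more of most of these transcripts than the liver of the same mouse. Against pre-metastatic liver, 7 of the 10 genes were higher in the tumor: Tnc 48.8-fold, Spp1 11.5-fold, Vcan 11.05-fold, Lox 9.94-fold, Tgfb1 2.68-fold, Mif 1.85-fold and Loxl2 1.68-fold. For each of these 7 genes all 9 tumors lay above all 9 pre-metastatic livers in RPKM. How many of all genes separate in this way was not counted, and on the RPKM scale the median of all genes was itself higher in the tumor. Of the 19749 genes tested 43.8% were called higher in the tumor and 39.5% lower, and the median log2 fold change was 1.15 for the 10 genes and 0.13 for all genes. Keeping the tumor and liver of a mouse together in the fit gave the same calls.

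The size of every fold between tumor and liver depends on the scaling. With library totals in place of TMM, which is the scale of RPKM, the median of all genes moved to 1.31 and each of the 10 genes moved up by about as much. The 7 genes were called higher on both scales. Fn1 was the gene for which this mattered most: it was lower in the tumor with TMM, at a log2 fold change of -0.96 ± 0.18 (SE; adjusted *p* = 5.79e-05), and at 0.25 with library totals (adjusted *p* = 0.109). Its level was 360 to 608 RPKM in the tumors, median 553, and in each of the 9 mice the tumor value was above the liver value, by 1.03 to 1.56 times. Tgfb2 likewise was at -0.36 ± 0.26 with TMM (adjusted *p* = 0.203) and at 0.82 with library totals (adjusted *p* = 0.00831). Its tumor level was 0.0572 to 0.227 RPKM, and 6 tumors were above all pre-metastatic livers. The exact rank-sum test on RPKM, with both genes higher in the tumor, gave an unadjusted *p* of 0.0400 for Fn1 and 0.00399 for Tgfb2.

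**Figure D4:**
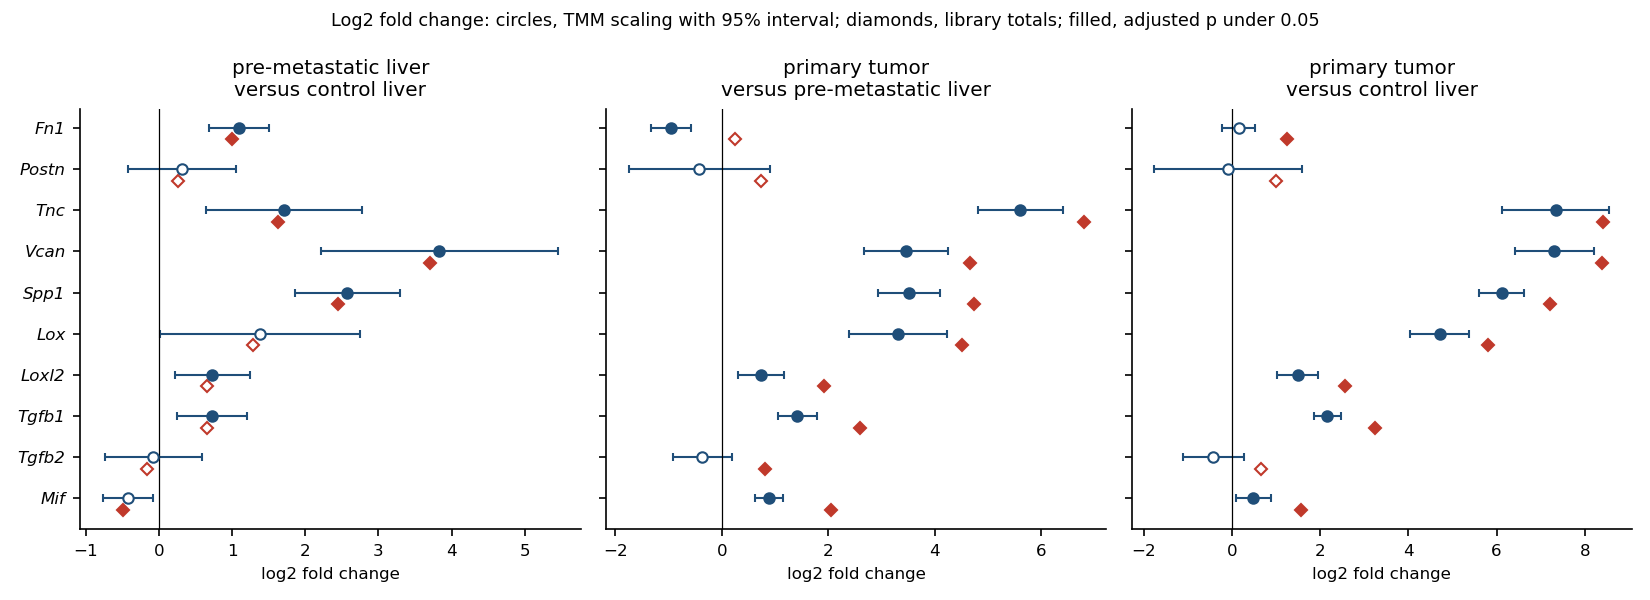
Log2 fold change of the 10 genes in the 3 comparisons; circles with their 95% interval are the edgeR fit with TMM scaling, diamonds the same fit with library totals, and filled marks have an adjusted p under 0.05. Between livers the fold changes of both scales nearly coincide, but Tgfb1 and Loxl2 are called only with TMM and Mif only with library totals. Postn and Tgfb2 change sign in both comparisons with the tumor, and Fn1 in that with pre-metastatic liver.

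Spp1 was the most abundant of the 10 genes in the tumor, at 1131 to 2594 RPKM with a median of 1922, and the log2 fold change against pre-metastatic liver was 3.52 ± 0.28 (SE, n = 9 and 9; adjusted *p* = 3.27e-10). Within a mouse the tumor held 17.5 to 59.4 times the liver RPKM. Tnc, at 3.76 to 21.4 RPKM and a median of 9.58, had the largest log2 fold change of the 10 genes, 5.61 ± 0.38 (SE; adjusted *p* = 3.60e-11), and each tumor exceeded its own liver by at least 35.0 times in RPKM. Vcan stood at 1.44 to 3.17 RPKM in the tumors, median 2.10 (3.47 ± 0.37, adjusted *p* = 4.17e-08). It was far less variable there than in the livers, with a coefficient of variation of 24.3% against 69.2%.

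Lox stood at 2.46 to 6.82 RPKM in the tumors, median 4.88 (log2 fold change 3.31 ± 0.44 SE, adjusted *p* = 8.79e-07). The tumors of M2 and M10, whose livers held almost no Lox, were at 4.88 and 5.33 RPKM, within the range of the other tumors. Loxl2 was at 0.870 to 2.34 RPKM (0.75 ± 0.21, adjusted *p* = 0.00265), and missed the threshold among early-phase mice (0.53, adjusted *p* = 0.0648). Tgfb1 was at 24.9 to 43.9 RPKM with a median of 34.6 (1.42 ± 0.18, adjusted *p* = 3.06e-07), and Mif at 347 to 709 RPKM with a median of 474 (0.88 ± 0.13, adjusted *p* = 1.97e-06).

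Postn split the tumors. The tumors of M4 and M7 held 12.4 and 11.5 RPKM, and the other 7 held 0.335 to 2.94 RPKM, so that the coefficient of variation over the tumors was 135%. Over all mice the log2 fold change against pre-metastatic liver was -0.42 ± 0.63 (SE; adjusted *p* = 0.540) with TMM and 0.73 (0.286) with library totals. Among late-phase mice alone, which hold neither M4 nor M7, it was -1.74 (adjusted *p* = 0.0260), and among early-phase mice 0.22 (0.829). Without M4 and M7, an alternative chosen after the values were seen, it was -2.05 (adjusted *p* = 0.00100). A test of whether the difference between tumor and liver itself changed with the clock phase called none of the 10 genes (edgeR, lowest adjusted *p* of 0.616, for Postn; none had an unadjusted *p* under 0.05), while it called 230 of 19749 genes.

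Against control liver the same 7 genes were higher in the tumor, of 44.2% of 19320 genes called higher and 38.1% called lower. This comparison shares its tumors with the one above. The log2 fold changes were 7.34 ± 0.57 for Tnc, 7.31 ± 0.42 for Vcan, 6.12 ± 0.24 for Spp1, 4.71 ± 0.32 for Lox, 2.17 ± 0.15 for Tgfb1, 1.49 ± 0.22 for Loxl2 and 0.48 ± 0.19 for Mif (SE, n = 9 and 5). Mif was the least secure of them, with an adjusted *p* of 0.0249 that rose to 0.270 among early-phase mice and to 0.0573 without C1, 0.0750 without C4, 0.0873 without C6 and 0.0709 without C7. Fn1 was not called with TMM (0.15 ± 0.17, adjusted *p* = 0.420) and was called higher with library totals (1.24, adjusted *p* = 1.92e-06). Postn (-0.08 ± 0.79, adjusted *p* = 0.925) and Tgfb2 (-0.42 ± 0.32, 0.236) were not called, and with library totals both were above 0 and still not called.

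Pathway genes also differed between tumor and liver in both directions. Of 11 genes of ligand storage and activation 9 were higher in the tumor and 2 lower, again against pre-metastatic liver, and the latent TGF-beta binding protein genes Ltbp3 (log2 fold change 4.14, adjusted *p* = 3.92e-15) and Ltbp1 (5.44, 2.71e-13) led them, while Furin (-2.03, 6.90e-11) and Lrrc32, which tethers latent TGF-beta on regulatory T cells, were lower (-1.52, 0.000365, and under library totals -0.35, 0.325). Of 9 Smads and regulators 7 were higher, led by Smurf1 (1.71, 1.44e-13) and Smad3 (1.43, 2.28e-10), and Smad6 (-1.41, 5.90e-07) and Smurf2 (-0.64, 2.90e-06) were lower, with 8 higher and none lower under library totals. Of 6 receptor genes 3 were higher and 2 lower. Of the 18 genes of the fibroblast response 12 were higher and 2 lower, with 15 and 1 under library totals. Of the lysyl oxidase family and its processing 3 of 5 were higher, led by Loxl3 (4.03, 2.32e-15), and Bmp1 was lower (-1.70, 1.09e-10). Of 18 other matrix genes tested 10 were higher and 6 lower, with 11 and 1 under library totals. Cd44 was higher (3.62, 6.79e-15) among 9 matrix receptors, of which 4 were higher and 3 lower. Of the 5 genes listed with Mif, Cxcr4 was higher (2.37, 2.68e-07) and Ddt (-6.00, 2.16e-16) and Cops5 (-0.50, 2.59e-06) were lower, while under library totals 4 were higher and only Ddt was lower. Among the leading genes of each pathway list and direction, library totals turned Smurf2, Hspb1, Fbln1 and Cops5 from lower to above 0. Of 6 markers each, 5 of fibroblasts and 4 of monocytes were higher in the tumor, with summed levels of 631 to 1040 and 99.5 to 191 RPKM, both above all livers. The remaining fibroblast marker, Lum, was lower (-0.97, 0.0268), and was at 0.18 and not called under library totals (0.661). The 6 hepatocyte markers were lower. Of the Kupffer cell markers 5 were lower and Adgre1 was higher, at a summed 20.2 to 69.8 RPKM. Of the stellate cell markers 4 were lower while Pdgfrb and Des were higher, and their summed level was 13.9 to 52.2 RPKM against 3.28 to 19.4 RPKM in pre-metastatic liver. Of the endothelial markers 4 were lower and Pecam1 was higher. Their part in the tumor levels of the 10 genes was not tested.

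Within a group, the order of the genes by RPKM changed from liver to tumor. In control liver Fn1 and Mif, at medians of 228 and 154 RPKM, overlapped, and Spp1, Tgfb1, Postn and Loxl2 followed at 11.9, 3.68, 1.79 and 0.301 RPKM, of which only Tgfb1 and Postn overlapped. Lox, Tgfb2, Tnc and Vcan lay at 0.0885 RPKM and less, and each overlapped the next. In pre-metastatic liver the first 7 places were the same, except that Fn1 no longer overlapped Mif, while Mif overlapped Spp1 and Loxl2 overlapped Lox. In the tumor Spp1 came first without overlap, Fn1 and Mif overlapped, Tgfb1 stood alone, and Tnc, Lox, Vcan, Loxl2 and Postn formed a chain of overlapping neighbors above Tgfb2.

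Whether a mouse with more of a transcript in its tumor also had more in its liver was tested over the 9 mice for the 8 genes with at least 10 reads in all 18 libraries. Fn1 had the highest relation, with Spearman's rho = 0.83 (exact permutation *p* = 0.00827) and Pearson's r = 0.776 (exact *p* = 0.0208). Over the 12748 genes tested the same way its adjusted *p* was 0.722, no gene had an adjusted *p* under 0.05 in this exact permutation test, and 675 genes had an unadjusted *p* under 0.05. Without M5 and M10, the mice farthest from the median tumor level, r was 0.670 (exact *p* = 0.104). Leaving them out also narrows the range and lowers the number of mice, so it cannot show how far the relation rests on them. With ranks taken inside each clock phase, rho was 0.933 (exact *p* = 0.00556). For the other 7 genes rho ran from -0.633 for Postn (exact *p* = 0.0760) to 0.467 for Spp1 (0.213), and adjusted *p* was 0.842 or more. Pearson's r ran from -0.681 for Loxl2 (exact *p* = 0.0429, and -0.511 with 0.236 without M1 and M12) to 0.398 for Spp1 (0.293).

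The genes whose pattern over the 9 pre-metastatic livers was most like that of a described gene were sought among 14255 genes by Pearson's r of log2(RPKM + 1). Lox and Tgfb2, with fewer than 10 reads in some of these livers, were not run there. They are the highest of many values, are given as a description, and share libraries and scaling with the gene they are compared with. The closest were A2m for Fn1 (r = 0.950), Cpb2 for Spp1 (0.963), Marcksl1 for Tgfb1 (0.978), Ldb2 for Postn (0.984), Gm38388 for Vcan (0.954), Bace2 for Tnc (0.942), Lrrc8b for Loxl2 (0.941) and Tmc3 for Mif (0.990). Over the 9 tumors, among 15603 genes, the closest were Slc16a11 for Fn1 (r = 0.958), Gm5539 for Spp1 (0.966), Dclk2 for Tgfb1 (0.942), Sod3 for Postn (0.968), Scd1 for Tnc (0.937), Commd4 for Lox (0.954), Enpp1 for Loxl2 (0.946) and Rbm33 for Mif (0.951), while for Vcan (0.962) and Tgfb2 (0.965) it was a gene model with no symbol. For the 8 genes run in both tissues, the closest gene differed between them.

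Transcripts on the opposite strand of these genes were scarce. 8030451A03Rik, which overlaps Tnc over 34952 bases, had a mean of 0.206 RPKM in the tumors and no read in the livers, and Gm4117, which overlaps Vcan over 8655 bases, had 0.1003 RPKM in the tumors and 0.00114 RPKM or less in the livers. Whether the counting used strand is not given in the sources used here, so reads of a gene and of its antisense partner may not be told apart.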

How the data were processed

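Poly(A) RNA of 23 libraries was sequenced by a service company from NEBNext Ultra libraries, and the submitters' processing notes name HISAT, HISAT2, HTSeq 0.6.0 and the build mm10. The annotation and the strand setting are not given in the sources used here. The authors deposited raw counts and RPKM for 48897 genes, and RPKM recomputed from the counts, lengths and totals differed by at most 1.75e-06 of itself. All 46 columns of single libraries were matched to a sample by mouse and tissue, and 2 symbols on more than 1 line were summed. No library copied another, as the most alike libraries of a group had a chi-square of 49.3 for each degree of freedom.

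Counts were tested with edgeR 4.0.16 in R 4.3.3 (TMM, quasi-likelihood test, two-sided) on genes that reached 10 counts in 5 or more of the libraries compared, with each fit holding only the groups compared and with Benjamini-Hochberg adjustment over all genes tested. The SE was derived from the quasi-likelihood F. The step was tested on simulated counts in which few genes changed, as many up as down. It therefore does not test the scaling between tumor and liver, where most genes were called. RPKM of single genes was compared by the exact two-sided rank-sum test over all splits, and relations across mice by exact two-sided permutation over all pairings. Alternatives were DESeq2 1.42.0 with its size factors, library totals, no filter on low counts, each clock phase alone, the mouse as a block and leaving out each mouse. Tumor and liver with the same number come from the same mouse. Over 12748 genes, libraries of 1 mouse, each centered on its group, had a mean correlation of 0.0849 (lowest -0.0437), and those of different mice -0.0108. Python 3.11.15, numpy 2.4.6, scipy 1.17.1, pandas 2.3.3 and matplotlib 3.10.9 were used for the rest.

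The 10 genes, the pathway and marker lists and the clock genes were chosen with earlier results of these data known. Named genes are the 10, the 2 genes of each pathway list with the smallest adjusted *p* in a direction (fewer are named for the tumor), the genes nearest to a gene of the 10 and overlapping genes. Dcn and Lum stand in both the fibroblast markers and the other matrix genes. Ctgf and Fam101b were used under these older symbols. Promoters are those of RefSeq, found for 7 of the 10 genes.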

Additional observations from a re-analysis of the deposited data

Results flagged for a closer look

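Each of the 10 genes was examined in each of the 3 groups, 30 groups of values in all, for a library whose gap to the nearest other library was too large a part of the whole range (Dixon's test at 95%, which flags about 1 in 20 groups by chance). A single library was singled out: Mif in the control liver of C5 stood at 279 RPKM, while the other control livers stood at 131 to 159 RPKM, and the gap was 0.814 of the range beside a critical value of 0.710. The pairs of libraries that stand apart for Lox (M2 and M10) and for Postn (M4 and M7) are not found by this test, which looks for a single library.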

How the results depend on the processing

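The calls of the 10 genes were 6 between livers, 8 between tumor and pre-metastatic liver and 7 between tumor and control liver, and across the alternatives these counts were 4 to 8, 7 to 9 and 6 to 8. Leaving out 1 mouse gave 4 to 8, 8 and 6 to 7. With library totals the split of all genes into higher and lower moved from 3009 and 2261 to 2375 and 2792 between livers, from 8648 and 7809 to 13352 and 4207 between tumor and pre-metastatic liver, and from 8540 and 7355 to 12859 and 4131 between tumor and control liver. With the mouse as a replicate block, 8 genes were called among 16329 of all genes, and no call of the 10 genes changed. Log2 values that turned sign were, with library totals, Fn1 (0.25), Postn (0.73) and Tgfb2 (0.82) against pre-metastatic liver, and Postn (0.997) and Tgfb2 (0.66) against control liver. The ratios of mean RPKM gave the same for Fn1 (0.25), Postn (0.73 and 0.997) and Tgfb2 (0.82 and 0.66). Among early-phase mice Postn turned to 0.22 and 0.32 and Fn1 to -0.0452, the last against control liver, and without the filter Postn turned to 0.0327 against control liver. Leaving out 1 mouse gave -0.23 to 0.15 for Tgfb2 between livers and -0.62 to 0.10 for Postn between tumor and control liver. Without the mice farthest from the median, Pearson's r between tumor and liver turned from -0.331 to 0.187 for Tnc and from 0.137 to -0.298 for Vcan. The causes were not tested, except that library totals shift all genes by construction. The low counts of Vcan, Lox, Tnc and Tgfb2 in liver limit their precision. The fits without M2 and M10, without M4 and M7 and with the interaction of tissue and clock phase were chosen after the data had been seen.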

Other observations

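Markers of mesothelium and of intestinal epithelium, which were listed as cells that a piece of liver or tumor could hold, also differed. Of all genes, 17.7% were called higher and 13.3% lower between livers. In the tumor against pre-metastatic liver, 43.8% were called higher and 39.5% lower. Of 6 mesothelial markers, Msln, Upk3b, Lrrn4 and Upk1b were higher in pre-metastatic than in control liver, and Wt1 and Krt8 were not called. The summed level of the list was 97.96 to 133 RPKM in control and 88.4 to 133 RPKM in pre-metastatic liver. Most of it was Krt8, at 95.3 to 127 and 80.9 to 127 RPKM, so the sum does not show the rise of the 4 genes. In the tumors 1 of the 6 was higher and 5 were lower than in pre-metastatic liver. Of 3 intestinal markers tested between livers, Vil1 and Krt20 were higher, from very low levels. Vil1 had a median of 0.00628 RPKM in control and 0.0714 RPKM in pre-metastatic liver, where its highest was 0.633 RPKM. For Krt20 these values were 0.0170, 0.0928 and 1.31 RPKM. Lgals4, at 2.49 to 7.91 and 0.476 to 5.75 RPKM, was not called. The summed level of all 6 was 2.53 to 7.98 RPKM in control liver, 0.626 to 6.69 RPKM in pre-metastatic liver and 35.1 to 116 RPKM in the tumors. Most of the tumor sum was Krt20, at 27.8 to 113 RPKM, while Vil1, Muc2, Cdx2 and Cdh17 reached at most 0.929 RPKM there. Against pre-metastatic liver 3 of the 6 were higher in the tumor and Vil1 and Lgals4 were lower, with 4 higher and none lower under library totals. Cdx2 had at most 1 read in any liver.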
